A study of Schizosaccharomyces pombe with 40 samples.

Results

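Copper transport in fission yeast (Schizosaccharomyces pombe) was followed through 4 genes, ctr4, ctr5, ctr6 and cuf1. They were chosen by their gene symbol in the platform annotation and were 4 of the 4816 genes, and 8 of the 9858 probes, on the array. Ctr4 and Ctr5 form the high-affinity copper transporter of the plasma membrane and depend on each other to reach the cell surface. Ctr6 is a copper transporter of the vacuole membrane, which releases stored copper to the cytosol. Cuf1 is a copper-sensing transcription factor. When copper is scarce it activates ctr4, ctr5 and ctr6 and represses genes of high-affinity iron uptake, and copper inactivates it. Total RNA was measured here, so neither the activity of Cuf1 nor copper itself was observed.

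The series holds 40 two-colour arrays of 4 strains with altered rep2, which encodes an activator of the G1/S transcription complex MBF. Per the titles and the growth protocol, Cdelta21, Cdelta53 and Cdelta94 carry truncations of rep2 and 2C/S-H/Y carries a site mutation. Cells were grown in YES, a rich medium, to mid log phase and treated with 8 mM hydroxyurea, an inhibitor of ribonucleotide reductase, for 10, 30, 60 or 120 min, and the 0 min samples came before it. All 20 groups share an altered rep2, and wild-type cells entered only as 1 pooled, untreated mid-log RNA, labelled with Cy3 on all 40 arrays against the Cy5 of the strain. Each group had 2 arrays, and nothing in the labels says that they came from separate cultures or clones, so the p-values measure a spread that may be technical. The sample descriptions also name another mutant, and the strain names used here are those of the titles. Every value is the authors' deposited log2 ratio of strain over reference, averaged over the 2 probes of a gene. A value of 0 is thus the wild-type level, 1 is 2 times that level, and levels of different genes are not comparable. Which dye the ratios divide by is not given. Cy5 over Cy3 was assumed, and with the other direction every sign against the reference would turn. None of the values of the 8 probes was missing.

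Some arrays stood apart. The 2 arrays of each Cdelta53 group nearly repeated each other, as did one 30 min and one 60 min array of 2C/S-H/Y. The robust SD of the difference between such arrays over all features was 0.052 to 0.0672, against 0.1375 to 0.465 for the 15 other pairs of the same group. Near-repeats counted as separate arrays can make the spread too small, so where counting each such pair once ended a call of a member, that value is given. In 2C/S-H/Y the arrays before the drug correlated with the later arrays of that strain over all features at 0.497 to 0.59, whereas the other strains gave 0.693 to 0.953 over the same times. The arrays labelled Cdelta94 30 min changed from 0 min like the 120 min arrays of the other strains (r = 0.669) more than like their 30 min arrays (r = 0.359). Those labelled Cdelta94 120 min matched the 120 min arrays of the other strains at r = 0.33 and their 60 min arrays at r = 0.391. A best match at another time also occurred elsewhere, as in Cdelta21 at 30 min (r = 0.347 with 60 min, 0.202 with 30 min). The time labels of the Cdelta94 arrays at 30 and 120 min are here treated as in doubt. Whether they are wrong was not tested. The rep2 probes, a check of the labels and of the assumed direction, averaged −5.19 and −5.09 on the 10 Cdelta94 arrays, −1.36 and −4.68 for Cdelta53, −0.695 and −0.899 for Cdelta21, and 0.63 and −0.10 for 2C/S-H/Y. The truncation strains thus read below the reference at both rep2 probes under the assumed direction, and would read above it under the other. Throughout, the number of arrays limits the precision.

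The transporter genes separated the strains before any drug was added. At 0 min ctr4 read 1.91 and 1.82 on the 2 arrays of 2C/S-H/Y, 1.62 and 1.60 in Cdelta21, 0.71 and 0.61 in Cdelta94, and 0.16 and 0.17 in Cdelta53. No strain overlapped another, as for 35.2% of all features over all 6 pairs of strains, and ctr4 was above the wild-type reference on every array. Its partner ctr5 read 1.41 and 1.27 for 2C/S-H/Y, 0.90 and 0.64 in Cdelta21, 0.24 and 0.32 in Cdelta94, and −0.13 and −0.17 in Cdelta53. The order of the strains was thus that of ctr4, and again no strain overlapped another.

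Against the wild-type reference, ctr4 was 3.65-fold higher in 2C/S-H/Y, where the log2 ratio was 1.87 (adjusted p = 2.48e-18, SE 0.07, 2 arrays). It was 3.05-fold higher in Cdelta21 (adjusted p = 1.29e-16) and 1.58-fold higher in Cdelta94 (adjusted p = 2.87e-09). In 2C/S-H/Y 0.04% of the 5004 features tested had a higher ratio than ctr4, and in Cdelta21 0.32% did. In Cdelta53 the ratio of 0.16 just passed (adjusted p = 0.042) and did not pass with near-repeats counted once (adjusted p = 0.298). All these tests are limma's, over all 40 arrays, adjusted by Benjamini-Hochberg over the 5004 features, and passed below an adjusted p of 0.05. Words of change in a tested comparison mean that it passed.

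The second subunit showed smaller ratios. The ctr5 transcript was 2.53-fold higher than the reference in 2C/S-H/Y, at 1.34 (SE 0.11, adjusted p = 8.87e-11), and 1.71-fold higher in Cdelta21, at 0.77 (adjusted p = 1.13e-06). In Cdelta94 it stood at 0.28 (adjusted p = 0.0237), which did not pass when either 0 min array of that strain was left out (adjusted p = 0.0809 and 0.202). In Cdelta53 it stood at −0.15 and did not pass (adjusted p = 0.231).

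The vacuolar transporter gene ctr6 followed the same order of strains at lower ratios, again without overlap at 0 min (35.2% of all features). It read 0.73 and 0.75 on the 2C/S-H/Y arrays at 0 min, 0.59 and 0.60 in Cdelta21, 0.28 and −0.12 in Cdelta94, and −0.34 and −0.37 in Cdelta53. It was higher than the reference in 2C/S-H/Y by 0.74 (SE 0.10, adjusted p = 1.5e-06) and in Cdelta21 by 0.59 (adjusted p = 2.29e-05). In Cdelta53 it was lower, at −0.36 (adjusted p = 0.00428), but not with near-repeats counted once (adjusted p = 0.11) or without its 0 min replicate 2 (adjusted p = 0.0714). In Cdelta94 the 2 arrays had opposite signs and their mean of 0.08 did not pass (adjusted p = 0.512).

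The regulator gene cuf1 did not share this pattern. At 0 min it read −0.03 and 0.34 for 2C/S-H/Y, −0.34 and 0.06 in Cdelta21, −0.27 and −0.25 in Cdelta53, and −0.61 and −0.68 in Cdelta94. It was lower than the reference in Cdelta94, at −0.65 (SE 0.14, adjusted p = 0.000284), a 1.56-fold difference, and passed in no other strain (adjusted p = 0.121 to 0.416). The strain with the second-lowest mean of ctr4 was thus the one with the lowest cuf1.

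In all, 3 of the 4 genes differed from the reference in each of 2C/S-H/Y, Cdelta21 and Cdelta94, and 2 in Cdelta53. Among all features tested the shares that differed were 48.6%, 53.9%, 67.4% and 57.2% in that order, so counts of this size are not particular to copper transport. The reference was 1 pooled RNA and the dyes were never swapped, so its own spread and any dye effect are not in these tests.

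Comparisons between strains have the same reference on both sides. At 0 min ctr4 was higher in 2C/S-H/Y than in Cdelta53 by 1.70 (3.26-fold, SE 0.10, adjusted p = 1.1e-13), and higher in Cdelta21 than in Cdelta53 by 1.44 (2.72-fold, adjusted p = 4.1e-12). It was higher in 2C/S-H/Y than in Cdelta94 by 1.21 (adjusted p = 4.92e-11) and in Cdelta21 than in Cdelta94 by 0.95 (adjusted p = 1.01e-08). The neighbours at the low end, Cdelta94 and Cdelta53, differed by 0.50 (adjusted p = 0.000152). The neighbours at the high end, 2C/S-H/Y and Cdelta21, differed by 0.26 (adjusted p = 0.0415), which did not pass with near-repeats counted once (adjusted p = 0.116) or with any of the 4 arrays involved left out (adjusted p = 0.0717 to 0.243).

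For ctr5 all 6 pairs of strains passed at 0 min. The largest difference, 1.49 between 2C/S-H/Y and Cdelta53, was 2.81-fold (SE 0.15, adjusted p = 9.1e-09), and the smallest, 0.43 between Cdelta94 and Cdelta53, had an adjusted p = 0.0228. That smallest difference did not pass with near-repeats counted once (adjusted p = 0.138). Between Cdelta21 and Cdelta94 ctr5 did not pass without Cdelta21 replicate 1 (adjusted p = 0.0984), and between 2C/S-H/Y and Cdelta21 it did not pass without Cdelta21 replicate 2 (adjusted p = 0.0862) or 2C/S-H/Y replicate 1 (adjusted p = 0.0714). For ctr6 5 of 6 pairs passed, and 2C/S-H/Y and Cdelta21 did not differ beyond their spread (adjusted p = 0.491). The ctr6 difference of Cdelta53 minus Cdelta94 (−0.43, adjusted p = 0.0166) did not pass with near-repeats counted once (adjusted p = 0.127), and was −0.233 without Cdelta94 replicate 1 (adjusted p = 0.289). That of Cdelta21 minus Cdelta94 (0.52) was 0.318 without Cdelta94 replicate 2 (adjusted p = 0.117). For cuf1 the pairs that passed were Cdelta94 below 2C/S-H/Y by 0.80 (adjusted p = 0.00124) and Cdelta94 below Cdelta21 by 0.50 (adjusted p = 0.0342). The latter did not pass with near-repeats counted once (adjusted p = 0.0615) and was 0.305 without Cdelta21 replicate 2 (adjusted p = 0.303).

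Of the 4 genes, the number that differed at 0 min was 3 for Cdelta21 against Cdelta53, 4 for Cdelta21 against Cdelta94 and 2 for Cdelta21 against 2C/S-H/Y. It was 3 for Cdelta53 against Cdelta94, 3 for Cdelta53 against 2C/S-H/Y and 4 for Cdelta94 against 2C/S-H/Y. The same comparisons called 44.1%, 60.9%, 29.4%, 44.7%, 52.8% and 64.8% of all features.

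**Figure D1:**
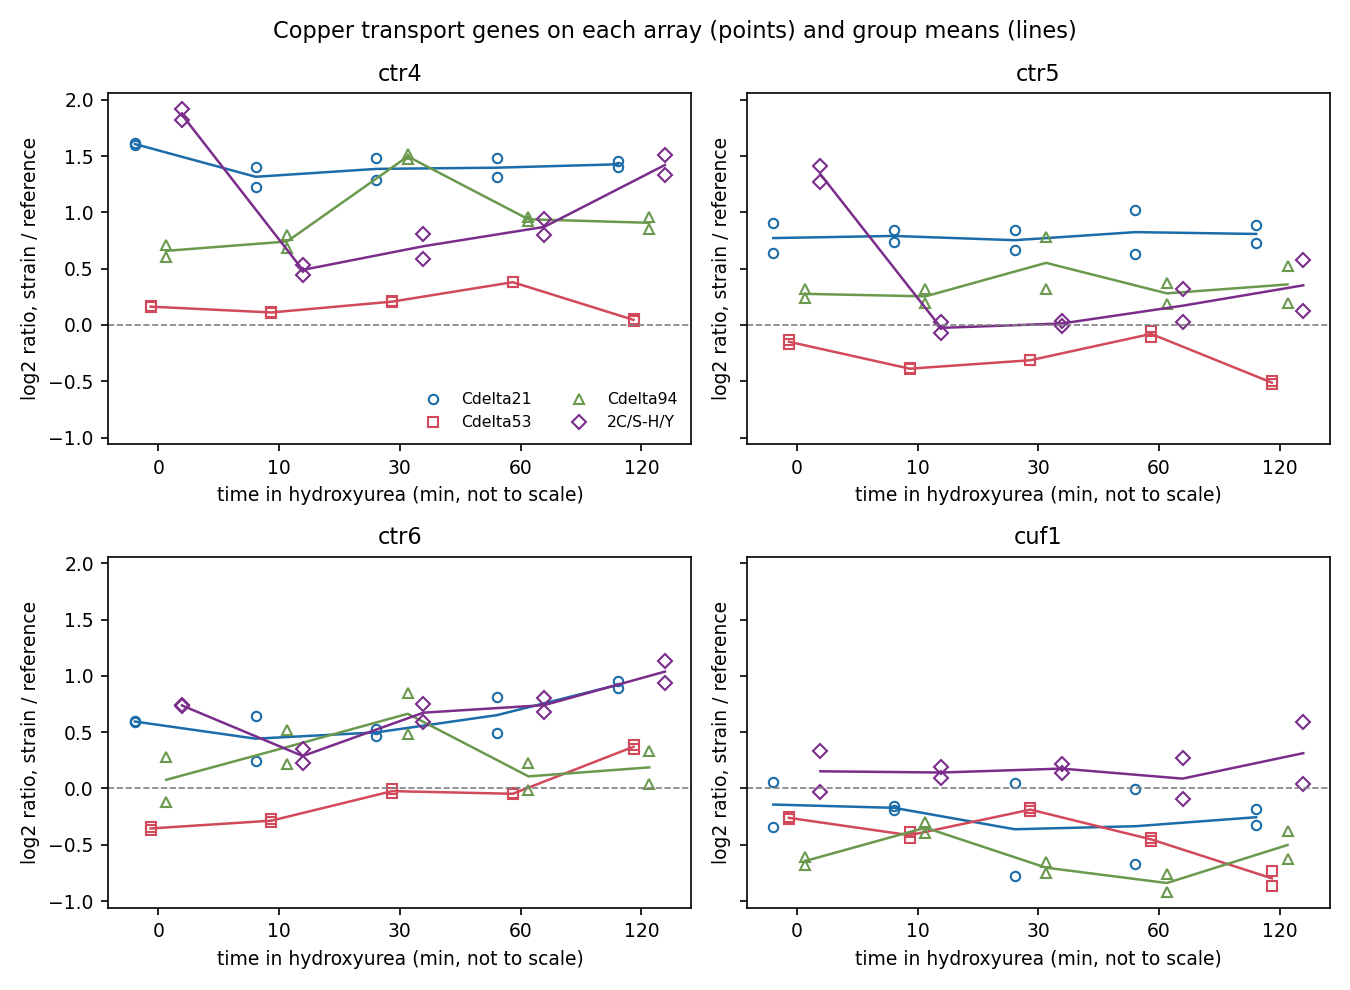
Log2 ratio of strain over wild-type reference (y axis) of ctr4, ctr5, ctr6 and cuf1 on each array (open points) at 0, 10, 30, 60 and 120 min (x axis, not to scale), with lines through the means of the 2 arrays and colours for the strains. In 2C/S-H/Y ctr4 dropped from a mean of 1.87 at 0 min and ctr5 from 1.34, while Cdelta21 stayed high and Cdelta53 stayed near or below 0.

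Through the time course, ctr4 stayed above the reference on 40 of 40 arrays, but the strains took different paths. In Cdelta21 it read 1.62 and 1.60 at 0 min, 1.40 and 1.23 at 10 min, 1.48 and 1.29 at 30 min, 1.48 and 1.31 at 60 min, and 1.40 and 1.45 at 120 min. In Cdelta53 it read 0.16 and 0.17, then 0.11 and 0.11, 0.21 and 0.20, 0.38 and 0.38, and 0.04 and 0.05 at the same times. These strains kept their places at the high and low end, with no overlap between any of their arrays, as for 18.2% of all features.

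In 2C/S-H/Y ctr4 dropped at the first time in the drug and partly returned. It read 1.91 and 1.82 at 0 min, 0.53 and 0.45 at 10 min, 0.81 and 0.59 at 30 min, 0.80 and 0.94 at 60 min, and 1.51 and 1.33 at 120 min. In Cdelta94 it read 0.71 and 0.61 at 0 min, 0.80 and 0.68 at 10 min, 0.96 and 0.92 at 60 min, and 0.96 and 0.85 on the arrays labelled 120 min. The arrays labelled Cdelta94 30 min stood above all others of that strain, at 1.48 and 1.52.

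The drop in 2C/S-H/Y passed at every time against 0 min. At 10 min ctr4 was 2.60-fold lower, a log2 change of −1.38 (SE 0.10, adjusted p = 1.31e-11, where 23.1% of all features passed), at 30 min the change was −1.17 (adjusted p = 3.6e-10), and at 60 min −0.996 (adjusted p = 6.68e-09). All 4 changes passed with near-repeats counted once (adjusted p = 1.76e-08 to 0.00436). At 120 min the change was −0.45 (adjusted p = 0.000421), and from 10 to 120 min ctr4 rose again by 0.93 (adjusted p = 1.88e-08). Of all features 25.9%, 29.5% and 44.3% passed at 30, 60 and 120 min, and 26.7% from 10 to 120 min. The changes from 0 min are taken against the 0 min arrays of this strain, which stood apart from its later arrays over all features. What those arrays contribute to the drop was not tested, and the rise from 10 to 120 min does not use them.

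The change of ctr4 in 2C/S-H/Y was itself different from that in each other strain at 10, 30 and 60 min. At 10 min the change was lower than in Cdelta21 by 1.09 (SE 0.14, adjusted p = 1.8e-06), than in Cdelta53 by 1.33 (adjusted p = 1.18e-07) and than in Cdelta94 by 1.46 (adjusted p = 1.25e-08), where 15%, 15.8% and 10.9% of all features passed. By 120 min the differences from Cdelta21 (0.27, adjusted p = 0.172) and Cdelta53 (0.33, adjusted p = 0.0711) no longer passed.

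In the other strains ctr4 gave smaller changes. Over the 4 times against 0 min, limma's F test called ctr4 in Cdelta94 (F = 23.4, adjusted p = 1.45e-06) and in Cdelta53 (F = 3.48, adjusted p = 0.0421), and not in Cdelta21 (adjusted p = 0.149). In Cdelta94 the single time that passed was that labelled 30 min, where ctr4 was 0.84 higher than at 0 min (1.79-fold, adjusted p = 2.6e-07). The F test there did not pass when the arrays labelled 30 and 120 min were left out together (adjusted p = 0.0797). The Cdelta53 call was lost with near-repeats counted once (adjusted p = 0.651). In Cdelta21 the change at 120 min was −0.18 (adjusted p = 0.177) on the deposited values but −0.794 (adjusted p = 7.68e-06) after quantile normalization.

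The second transporter subunit moved with ctr4 in 2C/S-H/Y. There ctr5 read 1.41 and 1.27 at 0 min, 0.02 and −0.07 at 10 min, −0.01 and 0.04 at 30 min, 0.03 and 0.32 at 60 min, and 0.58 and 0.12 at 120 min. It was 2.58-fold lower at 10 min, a change of −1.37 (SE 0.15, adjusted p = 1.21e-07), and still 1.98-fold lower at 120 min, a change of −0.99 (adjusted p = 5.36e-06). At 10 and 30 min the ctr5 arrays were thus near 0, the level of the wild-type reference. From 10 to 120 min ctr5 changed by 0.38, which did not pass (adjusted p = 0.0631), and whether the returns of the 2 genes differ was not tested.

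In the truncation strains the F test of ctr5 passed in none (adjusted p = 0.993 in Cdelta21, 0.371 in Cdelta94, 0.0858 in Cdelta53). In Cdelta21 it read 0.90 and 0.64, 0.84 and 0.74, 0.67 and 0.84, 0.63 and 1.02, and 0.73 and 0.89 at the 5 times. In Cdelta53 it read −0.13 and −0.17, −0.39 and −0.39, −0.32 and −0.31, −0.11 and −0.05, and −0.50 and −0.53, below the reference on all 10 arrays. In Cdelta94 it lay between 0.19 and 0.78 with a median of 0.32, and the means of the 3 truncation strains kept their order at the 5 times. At 30 min, however, Cdelta94 overlapped Cdelta21 and their difference did not pass (−0.20, adjusted p = 0.269). All Cdelta53 arrays lay below all arrays of Cdelta21 and of Cdelta94, as 18.2% and 19.2% of all features had no overlap between these pairs. The change of ctr5 at 10 min was lower in 2C/S-H/Y than in each truncation strain by 1.13 to 1.38 (SE 0.21, adjusted p = 4.19e-05 to 0.000659).

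The vacuolar transporter gene ctr6 took another course and was high late. In 2C/S-H/Y it read 0.73 and 0.75 at 0 min, 0.35 and 0.22 at 10 min, 0.75 and 0.59 at 30 min, 0.68 and 0.80 at 60 min, and 1.14 and 0.94 at 120 min. In Cdelta21 it read 0.59 and 0.60, 0.24 and 0.64, 0.53 and 0.47, 0.49 and 0.81, and 0.89 and 0.95 at the same times. In both strains the 120 min arrays were the highest.

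In Cdelta53 ctr6 read −0.34 and −0.37, −0.30 and −0.27, −0.01 and −0.04, −0.04 and −0.05, and 0.39 and 0.35, so its 120 min arrays alone were above the reference. In Cdelta94 the arrays lay between −0.12 and 0.84, and the arrays labelled 30 min were at 0.84 and 0.48. Replicate 1 was above replicate 2 in 5 of 5 Cdelta94 groups, by 0.237 to 0.40, and the change to 30 min was 0.567 between the arrays numbered 1 and 0.606 between those numbered 2.

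From 10 to 120 min ctr6 rose 1.68-fold in 2C/S-H/Y (0.75, SE 0.14, adjusted p = 0.000236), 1.58-fold in Cdelta53 (0.66, adjusted p = 0.000646) and 1.39-fold in Cdelta21 (0.48, adjusted p = 0.0195). The shares of all features that passed were 26.7%, 40.6% and 18.8%. With near-repeats counted once the rise passed in 2C/S-H/Y (adjusted p = 0.0023) but not in Cdelta53 (adjusted p = 0.0669) or Cdelta21 (adjusted p = 0.0648). In Cdelta21 it was 0.279 without 10 min replicate 1 (adjusted p = 0.284). In Cdelta94 the change between the arrays labelled 10 and 120 min was −0.18 (adjusted p = 0.573), and 1.42% of all features passed. Against 0 min the single changes of ctr6 that passed were −0.45 at 10 min in 2C/S-H/Y (adjusted p = 0.0247), 0.73 at 120 min in Cdelta53 (adjusted p = 0.000206) and 0.59 on the arrays labelled Cdelta94 30 min (adjusted p = 0.0037). The latter 2 comparisons called 41.1% and 24.2% of all features. The 2C/S-H/Y change did not pass with near-repeats counted once (adjusted p = 0.0726). The Cdelta53 change passed with near-repeats counted once (adjusted p = 0.0404) and was 0.436 with the first probe alone (adjusted p = 0.0742). The Cdelta94 change was 0.386 without its 0 min replicate 2 (adjusted p = 0.133) and 0.406 without its 30 min replicate 1 (adjusted p = 0.0936). By the F test ctr6 passed in 2C/S-H/Y (adjusted p = 0.00248), Cdelta53 (adjusted p = 0.00122) and Cdelta94 (adjusted p = 0.0112), but not in Cdelta53 or Cdelta94 with near-repeats counted once (adjusted p = 0.208 and 0.0579), nor in Cdelta94 without its 30 min replicate 1 (adjusted p = 0.156).

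The cuf1 transcript showed no called time course in any strain (adjusted p = 0.885 in 2C/S-H/Y, 0.839 in Cdelta21, 0.254 in Cdelta94 and 0.0886 in Cdelta53). Under other settings it was called, with the second probe alone in Cdelta21 (adjusted p = 0.0421) and Cdelta94 (adjusted p = 0.0279), and in Cdelta53 when its arrays alone were fitted (adjusted p = 1.32e-05), a fit in which near-repeats set the spread. Over the 10 arrays of a strain it ran from −0.78 to 0.06 in Cdelta21 (median −0.19), from −0.86 to −0.18 in Cdelta53 (median −0.41), from −0.92 to −0.30 in Cdelta94 (median −0.64) and from −0.09 to 0.59 in 2C/S-H/Y (median 0.16). All 10 arrays of Cdelta53 and of Cdelta94 were thus below the reference, and 8 of 10 in 2C/S-H/Y were above it. One single time passed, a change of −0.54 at 120 min in Cdelta53 (adjusted p = 0.0355), which did not pass with near-repeats counted once (adjusted p = 0.284). It was −0.0892 with the second probe alone (adjusted p = 0.703) and −0.275 after quantile normalization (adjusted p = 0.342).

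By limma's F test 3 of the 4 genes passed in 2C/S-H/Y and 2 each in Cdelta53 and Cdelta94, where the shares of all features called were 43%, 49.8% and 33.7%. In Cdelta21 limma called 0 of them (24.5% of all features), with 1 at an unadjusted p under 0.05, and it called 1 after quantile normalization. The time courses differed between strains for 3 of the 4 genes by the interaction F test (52.6% of all features). These were ctr4 (F = 26.4, adjusted p = 8.68e-10), ctr5 (F = 8.00, adjusted p = 5.82e-05) and ctr6 (F = 4.29, adjusted p = 0.00347), while cuf1 did not pass (adjusted p = 0.274). The ctr6 call was lost with near-repeats counted once (adjusted p = 0.0636).

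Averaged over the 4 strains with equal weight, the surface transporter genes fell in hydroxyurea and the vacuolar one rose late. At 10 min ctr4 fell by 0.41 on the log2 scale (1.33-fold, SE 0.05, adjusted p = 1.77e-06) and ctr5 fell by 0.40 (1.32-fold, SE 0.08, adjusted p = 0.00103), while 99.6% of all features had a higher change than either. At 120 min ctr4 fell by 0.12 (adjusted p = 0.0345), ctr5 fell by 0.31 (adjusted p = 0.00125), and ctr6 rose by 0.37 (1.29-fold, SE 0.07, adjusted p = 0.000129). The change of cuf1 was 0.03 at 10 min, −0.04 at 30 min, −0.16 at 60 min and −0.09 at 120 min, and passed at none (adjusted p = 0.235 to 0.904). With near-repeats counted once ctr4 did not pass at 60 min (adjusted p = 0.105) or 120 min (adjusted p = 0.145), nor did ctr5 at 60 min (adjusted p = 0.116).

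The falls of these averages rested on one strain. Without 2C/S-H/Y the mean change of ctr4 was −0.0867 at 10 min (adjusted p = 0.382), 0.221 at 30 min (adjusted p = 0.00595), 0.0957 at 60 min and −0.0162 at 120 min (adjusted p = 0.838). That of ctr5 was −0.081 at 10 min (adjusted p = 0.626), and 0.031 and 0.042 at 30 and 60 min, where the sign had turned. The late rise of ctr6 kept its call without 2C/S-H/Y, and was 0.526 (adjusted p = 0.000133) when all Cdelta94 arrays were left out of the mean as well.

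The averages called 2, 1, 2 and 3 of the 4 genes at 10, 30, 60 and 120 min, against 9.49%, 26.7%, 33.1% and 48.2% of all features. By direction 2, 1, 2 and 2 of them fell, where 4%, 13.6%, 20.2% and 24.4% of all features fell, and 1 rose, at 120 min, where 23.9% of all features rose. Without 2C/S-H/Y the genes called were ctr4 and ctr6 at 30 min, both higher, and ctr6 at 120 min. By strain the ctr4 change to 30 min was −0.22 in Cdelta21, 0.04 in Cdelta53 and 0.84 on the Cdelta94 arrays of doubtful time. For ctr6 these changes were −0.10, 0.33 and 0.59. Neither gene passed at 30 min when Cdelta94 was left out of the mean as well. As the mean over all 4 strains at 30 min, ctr4 (−0.13, adjusted p = 0.0505) and ctr6 (0.19, adjusted p = 0.0517) fell just short of passing. The ctr4 value was −0.479 after quantile normalization (adjusted p = 3.02e-07), −0.448 without the Cdelta94 arrays of doubtful time (adjusted p = 1.43e-06) and −0.232 with the second probe alone (adjusted p = 0.0126).

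**Figure D2:**
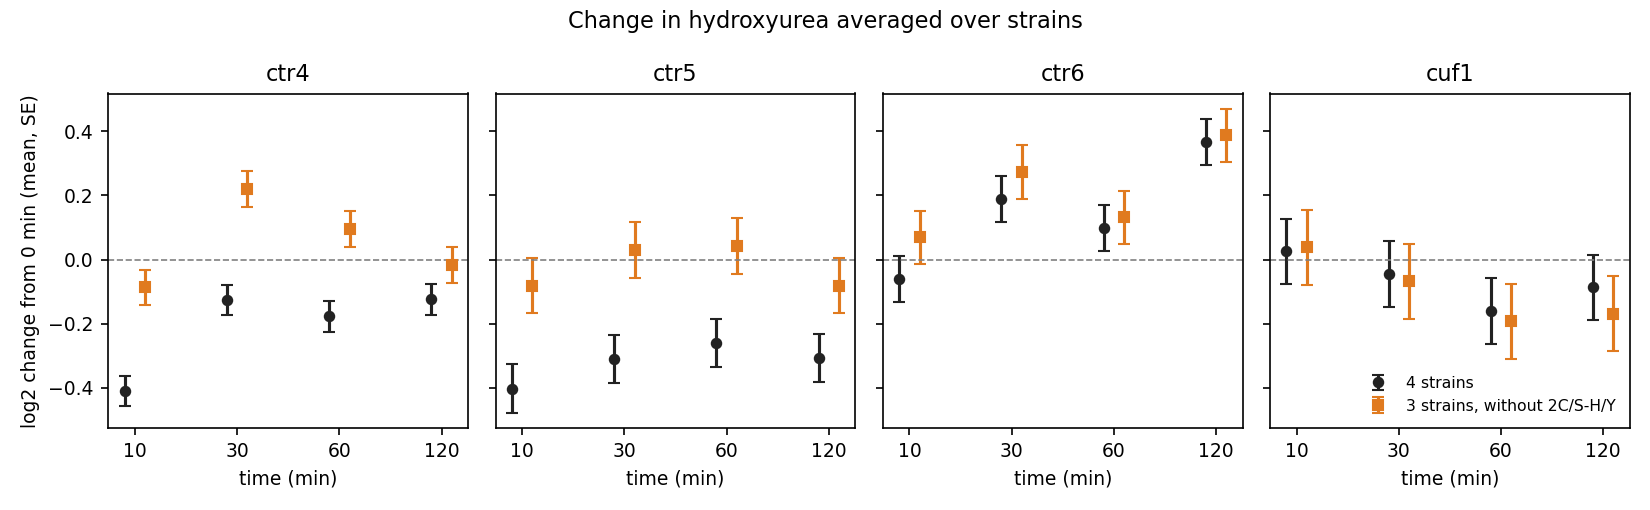
Log2 change from 0 min (y axis) of each copper transport gene at 10, 30, 60 and 120 min (x axis) as the mean over all 4 strains (dark circles) and over the 3 truncation strains (orange squares), with limma's standard errors as bars. The falls of ctr4 and ctr5 at 10 min, −0.41 and −0.40 over 4 strains, were −0.0867 and −0.081 without 2C/S-H/Y, while ctr6 at 120 min was above 0 in both.

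In hydroxyurea the order of the strains changed for ctr4. At 10 min Cdelta21 was highest, above 2C/S-H/Y by 0.83 (SE 0.10, adjusted p = 1.78e-07), and Cdelta94 was above 2C/S-H/Y by 0.25 (adjusted p = 0.0223), the reverse of 0 min (30.6% and 67.4% of all features passed). The latter did not pass with near-repeats counted once (adjusted p = 0.0626), or without Cdelta94 replicate 1 (adjusted p = 0.147) or 2C/S-H/Y replicate 2 (adjusted p = 0.126). At 60 min Cdelta94 and 2C/S-H/Y did not differ beyond their spread (0.07, adjusted p = 0.523). At 120 min 2C/S-H/Y had come back to the level of Cdelta21, with a difference of 0.0063 (SE 0.10, adjusted p = 0.967). Cdelta53 had the lowest mean at each of the 5 times.

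For ctr5 the order at 10 min was Cdelta21, Cdelta94, 2C/S-H/Y and Cdelta53. Cdelta94 and 2C/S-H/Y did not differ beyond their spread then (0.28, adjusted p = 0.1), and 2C/S-H/Y stood above Cdelta53 by 0.36 (adjusted p = 0.0385, with 61.3% of all features passing), but not with near-repeats counted once (adjusted p = 0.158). At 120 min Cdelta21 was above 2C/S-H/Y by 0.46 (adjusted p = 0.0181, with 37.5% of all features passing), when the ctr4 means were level. It was 0.228 without 2C/S-H/Y replicate 2 (adjusted p = 0.304) and did not pass without Cdelta21 replicate 2 (adjusted p = 0.137). For ctr6 the difference between Cdelta21 and 2C/S-H/Y passed at none of the 5 times (adjusted p = 0.363 to 0.652).

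Over whole time courses, 10 arrays against 10, some members had no overlap between strains. Between Cdelta21 and Cdelta53 these were ctr4 and ctr5, both higher in Cdelta21 (18.2% of all features had no overlap). Between Cdelta53 and Cdelta94 they were again ctr4 and ctr5, higher in Cdelta94 (19.2%). Between Cdelta53 and 2C/S-H/Y they were ctr4 and cuf1, higher in 2C/S-H/Y (29.6%), and between Cdelta94 and 2C/S-H/Y it was cuf1, higher in 2C/S-H/Y (35.5%). Cdelta21 had 0 such members against Cdelta94 (20.4%) and 0 against 2C/S-H/Y (8.05%). The labels give no batch, so a batch that coincides with a strain cannot be told apart from it.

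The 2 probes of a gene gave a check within each array. Over the 40 arrays they correlated at 0.94 for ctr4, 0.88 for ctr5, 0.82 for ctr6 and 0.61 for cuf1, where the median over 4814 genes with 2 probes was 0.694. Within Cdelta21, where ctr5 hardly varied, its probes correlated at 0.01, and in 2C/S-H/Y at 0.96. In Cdelta53 the first ctr5 probe averaged −0.49 ± 0.23 and the second −0.09 ± 0.13 (SD, n = 10 arrays), so the size of that strain's deficit depends on the probe. The cuf1 probes differed by up to 0.75 on one array. Where the probes lie within each gene is not given in the sources used here.

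**Figure D3:**
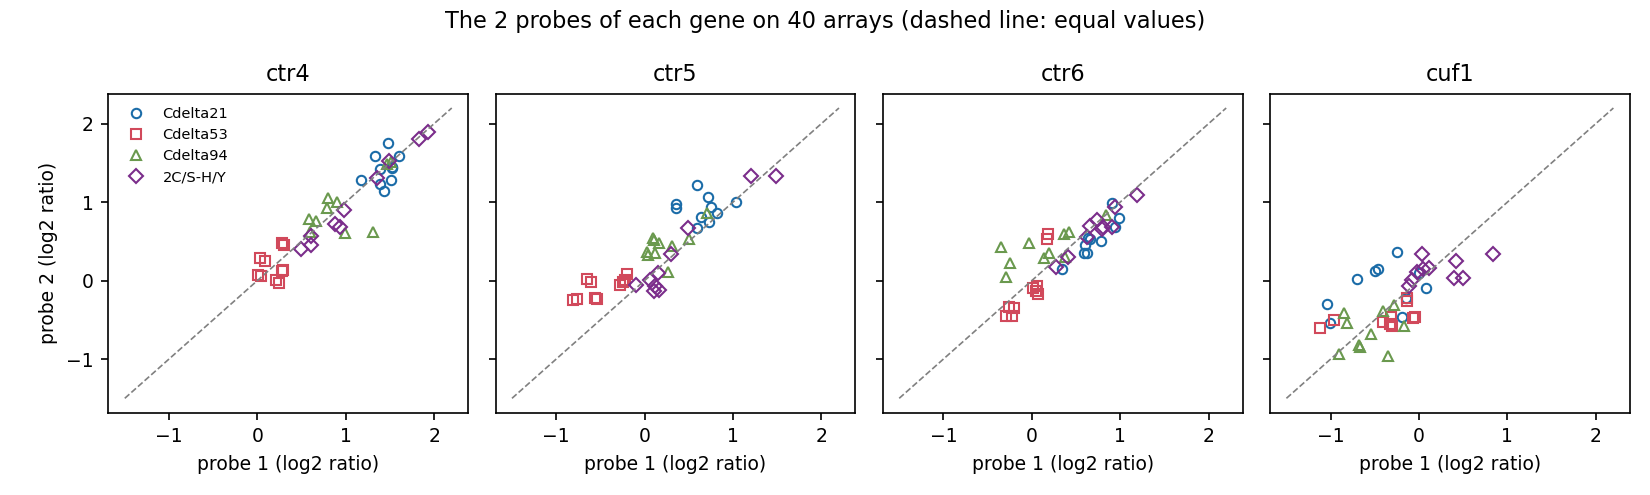
Log2 ratio at probe 2 (y axis) against probe 1 (x axis) of each copper transport gene on 40 arrays, with colours and symbols for the strains and a dashed line of equal values. The ctr4 points lie close to the line (r = 0.94), those of Cdelta53 for ctr5 lie above it, and the cuf1 points scatter most (r = 0.61).

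Among 4793 other named genes, the one most like ctr4 over the 40 arrays was ctr5 (Pearson r = 0.923), and the one most like ctr5 was ctr4. The arrays share strains, times, the reference and near-repeats, so these correlations are descriptions only. The ctr4 and ctr5 values correlated at 0.91 in 2C/S-H/Y, 0.84 in Cdelta53, 0.58 in Cdelta94 and −0.27 in Cdelta21 (n = 10 arrays each), the strain in which ctr5 varied least. When the 2C/S-H/Y arrays from before the drug were left out, the correlation over the other 38 arrays was 0.91. With each strain centred on its own mean it was 0.788, the second highest for ctr4 and the third highest for ctr5.

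The genes next to ctr5 in likeness to ctr4 were SPOM_SPBC16H5.14C (r = 0.902), lys12, a lysine biosynthesis gene (r = 0.883), cdc16 (r = 0.783) and tdh1, a glyceraldehyde-3-phosphate dehydrogenase gene (r = 0.778). For ctr5 they were lys12 (r = 0.842), SPOM_SPBC16H5.14C (r = 0.825), sfc9 (r = 0.784) and nbl1 (r = 0.778). The means of SPOM_SPBC16H5.14C in 2C/S-H/Y were 0.673 at 0 min, 0.070 at 10 min and 0.464 at 120 min, a drop and return as for ctr4, and in Cdelta21 they stayed between 0.433 and 0.549. With strains centred, SPOM_SPBC16H5.14C was the gene most like ctr4 (r = 0.804), followed by ctr5 and then gpd1 (r = 0.781), a glycerol-3-phosphate dehydrogenase gene.

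Neither ctr6 nor cuf1 had another member among its most similar genes. The 5 most like ctr6 were yop1 (r = 0.891), hxk1, a hexokinase gene (r = 0.864), pmm1 (r = 0.859), ayr1 (r = 0.859) and rog1 (r = 0.855). For cuf1 they were SPOM_SPBC947.06C (r = 0.904), nan1 (r = 0.900), rsa4 (r = 0.881), leu5 (r = 0.867) and zfs1 (r = 0.865). The correlation of cuf1 with ctr4 was 0.22 over the 40 arrays and ran from −0.36 to 0.40 within the strains. That of ctr6 with ctr4 was 0.73, but −0.07 in Cdelta21 and −0.23 in Cdelta53.

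**Figure D4:**
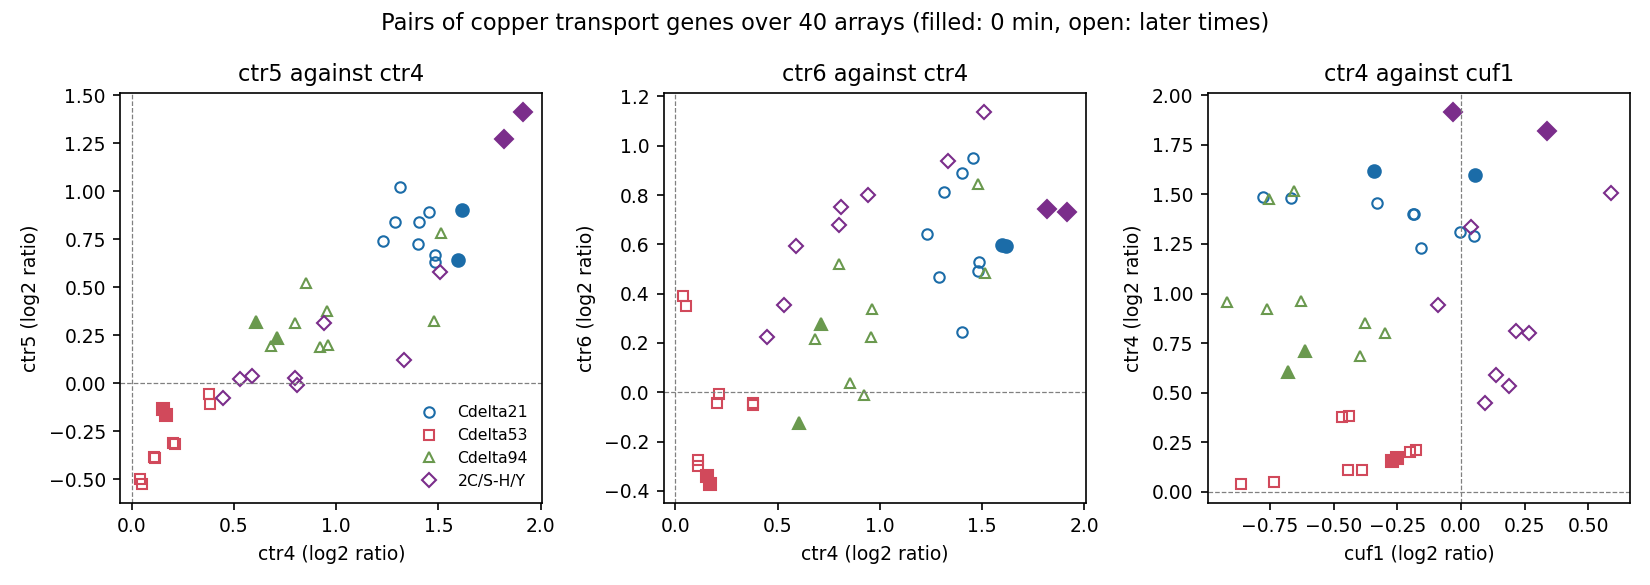
Log2 ratios of pairs of copper transport genes on 40 arrays, with ctr5 against ctr4 (left), ctr6 against ctr4 (middle) and ctr4 against cuf1 (right), filled points for 0 min and open points for later times, and colours for the strains. The ctr5 values follow ctr4 (r = 0.923), while ctr4 and cuf1 show no common trend (r = 0.22).

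Other genes of copper handling and of iron uptake and its control, of which 3 are known to be repressed by Cuf1, were read from a list of 22, and 19 of these matched the array and were tested. The iron uptake genes frp1, a ferric reductase gene, fio1, which encodes a copper-dependent ferroxidase, and fip1, its partner iron permease, gave another view of the strains at 0 min. In Cdelta21 and Cdelta94 3 of 3 were lower than the reference, in 2C/S-H/Y 2 of 3 were lower (frp1 at −1.49 and fio1 at −0.65), and in Cdelta53 2 of 3 were higher (fip1 at 0.41 and frp1 at 0.21). Lower calls made up 26.1%, 35.8% and 24.3% of all features in Cdelta21, Cdelta94 and 2C/S-H/Y, and higher calls 29% in Cdelta53.

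In hydroxyurea 3 of 3 rose at each of the 4 times as the mean over strains, where 5.5%, 13.1%, 12.9% and 23.9% of all features rose. Without 2C/S-H/Y the 3 changes at 10 min were 0.0481 to 0.146 and did not pass (limma's adjusted p = 0.255 to 0.806), and 3 of 3 rose at each later time. Other iron genes of the list moved too. Without 2C/S-H/Y str1, str2, str3 and php4 rose at 120 min (0.300, 0.445, 1.39 and 0.453, adjusted p = 7.04e-13 to 0.00387). There fep1 fell (−0.3115, adjusted p = 0.000473), and 1974 of all 5004 features passed. The rise was thus not confined to the 3 genes known to be repressed by Cuf1. In 2C/S-H/Y the frp1 mean went from −1.49 at 0 min to 2.17 at 10 min, over the interval in which ctr4 went from 1.87 to 0.49. In Cdelta53 frp1 went from 0.21 at 0 min to 4.28 at 120 min, while ctr4 stayed between 0.04 and 0.38. In Cdelta94 frp1 stood at −1.38 and −1.45 at 0 and 10 min and at 0.02 on the arrays labelled 30 min. Between 0 and 10 min frp1 and ctr4 thus moved in opposite directions in 2C/S-H/Y, a step taken from the 0 min arrays that stood apart. From 10 to 60 min the means of both were higher, with frp1 at 2.77 and ctr4 at 0.87, and at 120 min they were 2.46 and 1.42. In Cdelta53 frp1 also rose, where ctr4 was low throughout.

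Copper delivery genes were read as a list of 6 (atx1, ccc2, ccs1, cox17, cox19 and sco1). Of these 2 rose at 30 min (13.1% of all features), 1 rose and 1 fell at 60 min (12.9% and 20.2%), and 3 rose and 1 fell at 120 min (23.9% and 24.4%). The median change of the 6 at 120 min was 0.138, against −0.00419 over all features. The copper chaperone gene of superoxide dismutase, ccs1, rose by 0.36 at 120 min (adjusted p = 3.67e-06) and ccc2, the gene of a copper pump of the secretory pathway, by 0.24 (adjusted p = 0.000185). The gene of the cytochrome c oxidase copper chaperone, cox17, rose by 0.34 (adjusted p = 0.000189) and cox19 fell by 0.20 (adjusted p = 0.0138). Without 2C/S-H/Y none of the 6 passed at 30 min (limma's adjusted p = 0.0706 to 0.864). At 60 min atx1 and sco1 then fell and none rose. At 120 min ccs1, cox17 and ccc2 still rose, by 0.167, 0.199 and 0.366 (adjusted p = 0.0364, 0.0476 and 6.56e-06). There sco1 fell (−0.290, adjusted p = 0.00789) and cox19 did not pass (−0.0736, adjusted p = 0.471). The superoxide dismutase gene sod1, whose product holds copper, rose at 10 min by 0.40 (adjusted p = 0.00293), and its mean in 2C/S-H/Y went from −0.23 to 0.82. Without that strain the sod1 change was 0.186 (adjusted p = 0.277). In Cdelta94 cox19, a gene of copper delivery to cytochrome c oxidase, stood at 1.10 at 0 min and between 0.96 and 1.22 later.

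The metallothionein gene zym1 rose at 60 min by 0.42 (adjusted p = 0.00495) and at 120 min by 0.98 (adjusted p = 4.36e-08) as the mean over 4 strains. From 0 to 120 min its mean went from 0.10 to 2.49 in 2C/S-H/Y and from 1.07 to 2.60 in Cdelta53, while it went from 0.997 to 1.16 in Cdelta21 (adjusted p = 0.657) and from 3.77 to 3.62 in Cdelta94 (adjusted p = 0.892). Without 2C/S-H/Y the changes were 0.161 at 60 min (adjusted p = 0.373) and 0.516 at 120 min (adjusted p = 0.00257). Of the 19 related genes 5 rose at 10 min, where 5.5% of all features rose, and 12 rose and 2 fell at 120 min, where 23.9% and 24.4% of all features rose and fell. Without 2C/S-H/Y str2 alone of the 19 passed at 10 min (0.254, limma's adjusted p = 0.0276), as did 247 of all 5004 features.

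**Figure D5:**
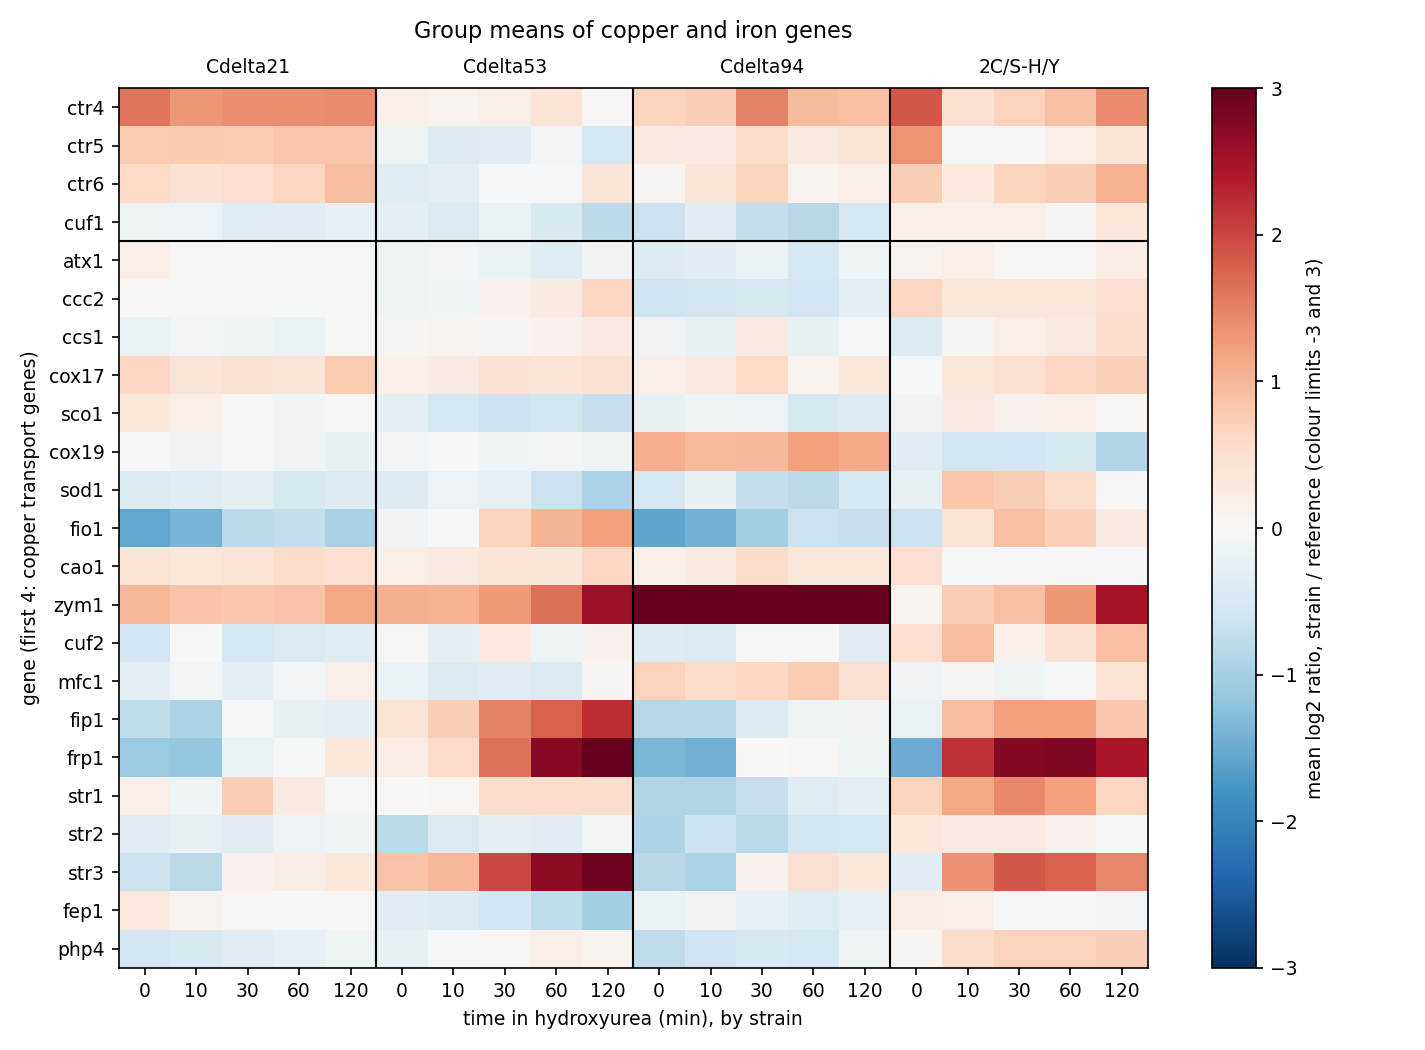
Mean log2 ratio of strain over reference (colour, limits −3 and 3) of the 4 copper transport genes (top rows) and 19 related copper and iron genes (rows) in each strain at 0 to 120 min (columns). The columns of 2C/S-H/Y change between 0 and 10 min, where ctr4 goes from 1.87 to 0.49 and frp1 from −1.49 to 2.17; Cdelta94 zym1 and the last frp1 value of Cdelta53 lie beyond the colour limit.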

How the data were processed

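Total RNA of 40 arrays was measured as 2-colour hybridisations. Hot phenol extraction and indirect dye labelling of cDNA were used, per the labels' protocols. The authors' deposited table holds 1 log2 ratio per probe and array, with 1.17% of values missing. How the spots were scanned, background-corrected and normalized is not given in the sources used here. The log2 base was settled from the deposited values, since 100% of values below 0 gave, taken as powers of 2, whole steps of 0.001 (tolerance 0.02 steps). Array medians ran from −0.122 to 0.0621. All columns of the table belong to a sample.

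The platform annotation gave 1 symbol for 9632 probes, several for 44 and none for 182. The 2 probes of each of 4816 genes were averaged. Features needed a value on 80% of arrays and in every group, which left 5004 of 5042. Limma 3.58.1 in R 4.3.3 (lmFit, eBayes) was fitted to 20 group means with 20 residual degrees of freedom, checked on simulated data first, with Benjamini-Hochberg adjustment and a threshold of 0.05. The members, the lists and the rule for similar genes (the 5 named genes of highest Pearson r) were chosen with earlier results of these data known. Names matched the RefSeq gene table of assembly ASM294v3 or the platform symbol. Alternatives were quantile normalization, centring of array medians, only the groups compared, single probes, no filter, limma's trend and robust options, a replicate block, near-repeats averaged, and leaving out arrays.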

Additional observations from a re-analysis of the deposited data

Results flagged for a closer look

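The time courses of 3 of the 4 genes differed between strains by limma's interaction F test, which is why they are listed here. They were ctr4 (adjusted p = 8.68e-10), ctr5 (adjusted p = 5.82e-05) and ctr6 (adjusted p = 0.00347). For ctr4 and ctr5 the strain that differed from each of the others at 10, 30 and 60 min was 2C/S-H/Y, whose 0 min arrays stood apart over all features; what those arrays contribute was not tested. For ctr5 against Cdelta53 at 60 min the difference did not pass with near-repeats counted once (adjusted p = 0.0873). At 30 min, a time in doubt in Cdelta94, the ctr4 change in Cdelta94 also differed from those in Cdelta21 and Cdelta53. With 1 array left out, Cdelta21 minus Cdelta94 ran from −1.158 to −0.961 and Cdelta53 minus Cdelta94 from −0.846 to −0.742. What counting near-repeats once does to these ctr4 differences is not given here. For ctr6 the pairwise differences of change that passed all involved Cdelta94. One of them, at 10 min against 2C/S-H/Y (0.74, adjusted p = 0.0188), uses no array of doubtful time but did not pass with near-repeats counted once (adjusted p = 0.0721). The others were at 30 min against Cdelta21 and 2C/S-H/Y and at 120 min against Cdelta53, times that are in doubt in Cdelta94.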

How the results depend on the processing

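Apart from the replicate block and single arrays left out, both given below, counts of the 4 genes past the threshold changed as follows. All other counts stayed within 1.5 times. For the mean change at 30 min (1 as reported) 2 passed with quantile normalization, centred medians, only the groups compared, the second probe, no filter, or without the Cdelta94 arrays of doubtful time. At 60 min (2) 0 passed with the first probe or with near-repeats averaged or counted once. Without 2C/S-H/Y 0, 2, 0 and 1 passed at 10, 30, 60 and 120 min, and without it and Cdelta94 as a whole 0, 0, 0 and 1. In the Cdelta21 time course (0) 1 passed with quantile normalization or without the Cdelta94 arrays of doubtful time, and 2 with the second probe. In Cdelta53 (2) 4 passed with only the groups compared, 1 with the first probe or trend and robust options, and 0 with near-repeats averaged or counted once. In Cdelta94 (2) 1 passed with quantile normalization, only the groups compared, or near-repeats averaged or counted once, and 0 without the arrays of doubtful time. For Cdelta53 at 0 min against the reference (2) 1 passed with quantile normalization, centred medians or trend and robust options, 4 with only the groups compared, and 0 with the first probe or near-repeats averaged or counted once. Between Cdelta21 and 2C/S-H/Y (2) 1 passed with only the groups compared, the first probe, trend and robust options, or near-repeats averaged or counted once, and 0 with the second probe. With the first probe 2 passed between Cdelta21 and Cdelta94 (4) and 1 between Cdelta53 and Cdelta94 (3), the latter also with near-repeats averaged or counted once.

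With 1 array left out, the counts ran from 1 to 2 at 30 min, 2 to 3 at 120 min, 0 to 1 in the Cdelta21 and 1 to 1 in the Cdelta53 time course, 1 to 2 in Cdelta94 and 3 to 4 for the interaction. They ran from 0 to 1 for Cdelta53 against the reference and for Cdelta21 against 2C/S-H/Y, 2 to 3 for Cdelta21 against Cdelta94 and 1 to 2 for Cdelta53 against Cdelta94.

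Directions turned only for values that did not pass, apart from those without 2C/S-H/Y. With the first probe cuf1 gave −0.016 at 10 min and 0.0343 at 30 min, −0.417 for Cdelta21 minus Cdelta53, 0.306 for Cdelta21 at 120 min and −0.0794 for Cdelta53 at 30 min, and ctr6 −0.0445 in Cdelta94 at 0 min. With the second probe cuf1 gave 0.188 in Cdelta21 at 0 min and 0.0557 for Cdelta21 minus 2C/S-H/Y, and ctr5 0.0387 for Cdelta53 at 30 min. Without 2C/S-H/Y str3 gave −0.0514 at 10 min and ccs1 −0.0197 at 60 min, ctr6 gave 0.0693 at 10 min, ctr4 0.221 and 0.0957 and ctr5 0.031 and 0.042 at 30 and 60 min. Without it and without Cdelta94 as a whole cuf1 gave −0.0916 at 10 min, and ctr4 0.0035 and ctr5 0.0613 at 60 min. With 1 array left out cuf1 ran from −0.0237 to 0.0756 at 10 min, −0.148 to 0.0584 at 30 min, −0.342 to 0.0557 in Cdelta21 and −0.0321 to 0.337 in 2C/S-H/Y at 0 min, −0.0803 to 0.317 for Cdelta21 minus Cdelta53, and −0.311 to 0.0862 for Cdelta21 at 120 min; ctr6 in Cdelta94 at 0 min ran from −0.123 to 0.277. The cause of these shifts was not tested.

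Equal replicate numbers were not taken as pairs in the main fit. Deviations from group means correlated at −0.425 to 0.651 over 190 pairs of groups, within and between strains (median 0.0402). Within strains the medians ran from 0.0568 to 0.26, and every pair was over 0.1 in no strain. In 2C/S-H/Y, however, all 10 pairs were above 0 (0.056 to 0.651) and 8 were over 0.1. In Cdelta94 they ran from −0.14 to 0.598 (median 0.145). Whether the numbers pair the arrays in some strains is thus not settled. Fitted within Cdelta94 alone, the ctr6 change to 30 min had an adjusted p = 0.00846 with the replicate number as a block and 0.0712 without it. With the block over all arrays 3 of the 4 genes passed at 30 min and the other counts stayed within 1.5 times. Counting near-repeats once in every group, leaving 2C/S-H/Y out of the mean, the fits within 1 strain and single arrays left out after 0 min between strains were chosen after seeing the data. Signal intensities were not used here, so which ratios lie near background is not known.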

Other observations

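With each strain centred on its own mean, so that only the course within strains counts, the named gene most like ctr6 over the 40 arrays was SPOM_SPAC323.07C (r = 0.864), followed by yop1 (r = 0.852), alo1 (r = 0.847) and osm1 (r = 0.837). For cuf1 it was utp18, a ribosome biogenesis gene (r = 0.814), followed by nan1 (r = 0.776), rml2 (r = 0.741) and klf1 (r = 0.723). Of the 5 genes most like each before centring, yop1 stayed for ctr6, and nan1 and SPOM_SPBC947.06C for cuf1. These are descriptions over arrays that share strains, times and one reference.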
